A study of Mus musculus with 5 samples.

Results

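A set of 9 miRNAs, most of them known from neurons, was followed in the hippocampus of BDNF knock-in mice: miR-128, miR-137, miR-138, miR-218, miR-129-5p, miR-129-3p, miR-153, miR-383 and miR-488. They were chosen by a rule on probe names, which itself uses no measured value, although earlier results of these data were known when it was written. A probe was taken if it was not a control and was named miR-128 (also with the letter a or b), miR-129, miR-137, miR-138, miR-153, miR-218, miR-383 or miR-488, alone or with the ending -5p or -3p. Passenger strands marked with an asterisk were left out. This gave 9 of the 569 miRNA probes on each array, and all 9 were among the 568 that were bright enough to be tested.

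MiRNAs are short RNAs that guide Argonaute proteins to messenger RNAs, mostly by pairing of the seed (bases 2 to 8) with the target, and lower the output of those messages. Neurons make a characteristic set of them, several of which sit in dendrites and act on local translation, spine size and excitability. BDNF, a neurotrophin released by neurons that supports their survival and the plasticity of synapses, is among the signals known to change miRNA processing in neurons.

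All mice were of the 129/Sv strain, aged 8 weeks, and carried a humanised BDNF gene on both chromosomes. They were homozygous for either methionine (Met/Met) or valine (Val/Val) at the common variant site, and the series has no mice with the unmodified mouse gene among its groups. RNA of the hippocampi of 1 Met/Met mouse, labelled with Cy3, was hybridised together with that of 1 Val/Val mouse, labelled with Cy5, on each of 5 two-colour arrays, called replicates 1 to 5. The question was which hippocampal miRNAs differ between the genotypes. Dyes were never exchanged, so dye and genotype cannot be told apart, and since whole tissue was used, fewer cells of a type and less RNA per cell cannot be told apart either.

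The scanner columns are named Test and Cntrl, and no source used here says which genotype each holds. A table of log2 ratios deposited by the submitters followed Test over Cntrl. Among probes above the mismatch controls in both columns, its correlation with the ratios computed here lay between 0.970 and 0.989 over the 5 arrays (254 to 314 probes), with slopes from 1.06 to 1.13. Over all 568 miRNAs that both hold, dim ones included, the correlation was lower, from 0.773 to 0.926. The sample titles name Met/Met before Val/Val, which would put Met/Met in Test if the titles give the order of the ratio, but this is not stated. Every ratio below is therefore Test over Cntrl, and which genotype a positive ratio favours is not settled.

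The arrays differed in background and in their overall pattern. The 95th percentile of the mismatch control spots ranged from 77.8 to 209 intensity units in Test and from 379 to 464 in Cntrl. Over all 568 tested miRNAs the ratios of replicate 3 correlated negatively with those of replicate 1 (r = −0.30) and replicate 5 (r = −0.56). With replicates 2 (r = 0.25) and 4 (r = 0.17) they correlated positively. Pairs of arrays without replicate 3 ranged from 0.18 to 0.63. The same pair of replicates 3 and 5 had r = −0.37 in the submitters' table. By the labels replicate 3 carries the same dyes as the others. Its empty spots were brighter in Cntrl (median 208) than in Test (38.2), as on the other arrays. The ratios alone do not settle whether its samples run the same way, and results are also given with its sign turned.

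The mature sequences show what each probe was built to catch. Of the 9 array targets, 8 matched a mouse mature miRNA of RefSeq (GRCm38.p6) base for base. For miR-383 the RefSeq sequences at hand held no entry, so its target could not be compared. The 8 matched sequences are printed 5′ to 3′ with the seed in capitals.
miR-128: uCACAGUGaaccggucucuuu
miR-137: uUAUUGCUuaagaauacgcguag
miR-138: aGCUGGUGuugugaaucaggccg
miR-218: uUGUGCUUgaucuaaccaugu
miR-129-5p: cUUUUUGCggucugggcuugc
miR-129-3p: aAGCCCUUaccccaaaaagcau
miR-153: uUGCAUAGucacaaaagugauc
miR-488: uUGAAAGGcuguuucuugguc
No seed occurred more than once among the 9, and no other probe on the array had the seed of any of them. A seed shifted by 1 base was shared by miR-128 with miR-27a and miR-27b, and by miR-137 with miR-801. The nearest other target on the array was at an edit distance of 7 for miR-128 (miR-139-5p), and of 8 to 10 for the rest, so none of the probes had a near-identical partner. Targets were 21 to 23 bases long with a G and C share of 34.8% to 57.1% (median 45.5%, the same as over all 569 probes).

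The 8 matched sequences come from 11 hairpins spread over 9 chromosomes, and several lie inside genes with neuronal roles. MiR-128 is encoded at chr1:128202404-128202424 (plus strand), within the span of R3hdm1, and at chr9:112118644-112118664 (minus strand), within Arpp21, which encodes a cAMP-regulated phosphoprotein. MiR-218 is encoded at chr5:48223966-48223986 (plus), within Slit2, and at chr11:35616840-35616860 (plus), within Slit3, both genes of secreted axon guidance proteins. MiR-153 lies at chr12:117250860-117250881 (plus), within Ptprn2, a gene of dense-core vesicles, and miR-488 at chr1:158505689-158505709 (plus), within Astn1, which encodes the neuronal adhesion protein astrotactin. MiR-138 comes from chr8:94324312-94324334 (plus), within Nup93, and from chr9:122682898-122682920 (plus). MiR-129-3p lies at chr2:94241376-94241397 (minus) and miR-129-5p on the other arm of the same hairpin at chr2:94241419-94241439 (minus), within the long noncoding RNA Mir670hg. MiR-129-5p has a further copy at chr6:29022624-29022644 (plus), and miR-137 lies at chr3:118433901-118433923 (plus). Each host gene named here is on the strand of its miRNA. Whether a position is exonic or intronic was not used here, because the annotation at hand gives gene spans only.

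All 9 miRNAs read above background in this tissue. Each exceeded the 95th percentile of the mismatch controls in both columns on all 5 arrays, which 245 of 569 probes (43.1%) did. With the looser rule of at least 1 column on at least 3 arrays, the count was again 9 of 9, beside 318 of 569 probes (55.9%). Brightness is not compared between probes, since probes differ in how well they bind. MiR-128 ranged from 30480 to 44036 intensity units in Test and from 36848 to 43100 in Cntrl. MiR-488 was the one close to the limit, with 106 to 387 in Test and 416 to 513 in Cntrl.

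**Figure D1:**
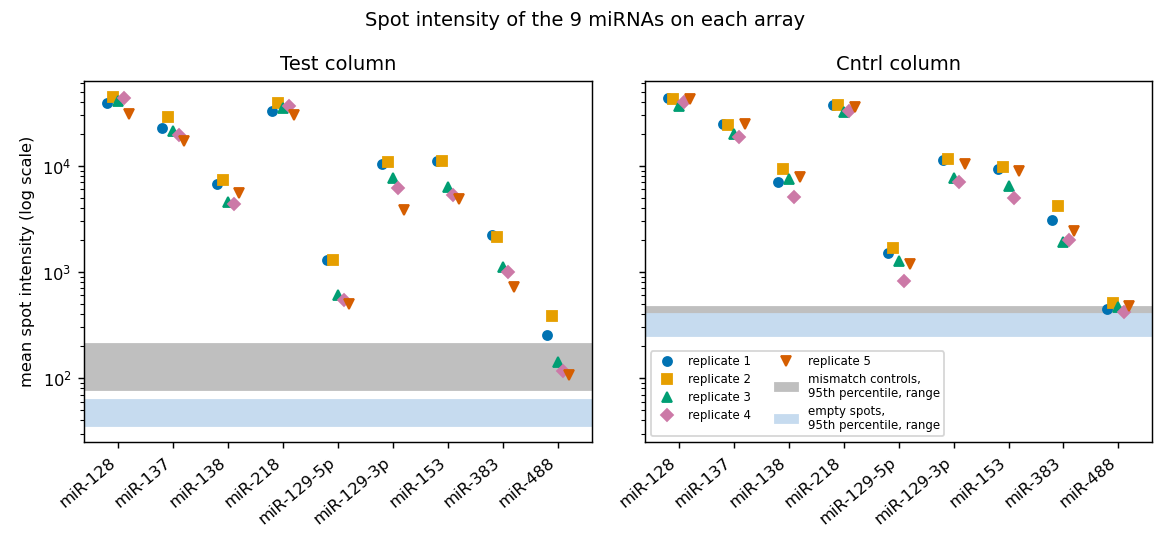
Mean spot intensity (log axis) of the 9 miRNAs in the Test and the Cntrl column, 1 point per array (mean of 6 spots). Bands span the 5 arrays' 95th percentiles of mismatch control spots and of empty spots. MiR-488 lies near the mismatch band in both columns, and the other 8 lie above it on every array.

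None of the 9 passed the correction for multiple testing in limma, where 0 of 568 miRNAs did (0%) at an adjusted p of 0.05. An unadjusted p below 0.05 was reached by 3 of the 9 (miR-488, miR-383 and miR-218), against 110 of 568 (19.4%) over all miRNAs, with 8.63% towards Test and 10.7% towards Cntrl. The 5 ratios shared 1 sign for 4 of the 9 (miR-128, miR-218, miR-383 and miR-488), against 112 of 568 (19.7%). With the sign of replicate 3 turned, these counts were 2 and 1 of 9 (19.2% and 19.5% over all miRNAs). Turning any 1 array takes the shared sign from every miRNA that had it, so the loss for these 4 was fixed in advance. The 1 then counted was miR-129-3p, positive on replicate 3 only. The turned means were −0.46 for miR-383 and 0.31 for miR-488 (limma adjusted p = 0.143 each), −0.09 for miR-128, −0.04 for miR-218, −0.04 for miR-137, −0.29 for miR-129-3p and 0.14 for miR-129-5p, each of the sign reported below. Means were positive for 3 and negative for 6, against 51.6% positive and 48.4% negative over all miRNAs, and their median was −0.08 against 0.00 over all. The median size of a mean was 0.13, beside 0.11 over the 318 miRNAs above the mismatch controls. On every array 3 of the 9 were positive and 6 negative, but not the same ones each time.

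**Figure D2:**
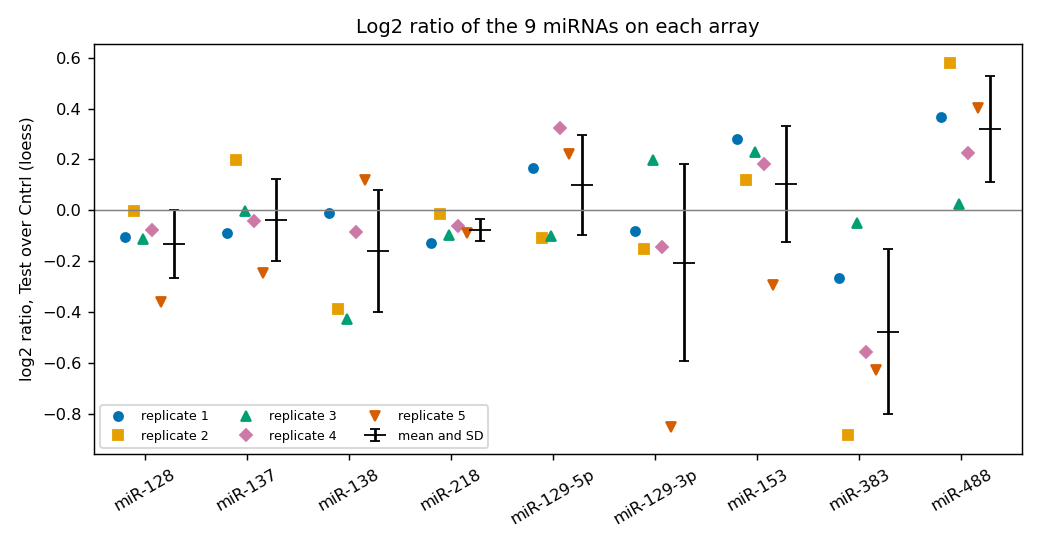
Log2 ratio of Test over Cntrl after loess (vertical axis) for each of the 9 miRNAs, 1 point per array, with the mean and SD over 5 arrays beside the points. All points of miR-383 lie below 0 and all points of miR-488 above 0, while miR-129-3p and miR-153 have replicate 5 well below the other arrays.

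The widest separation was between miR-383 and miR-488. MiR-383, studied mainly in testis, where it represses the transcription factor IRF1 in human cells, was 1.39-fold higher in Cntrl. Its Test intensity was 2246, 2145, 1107, 997 and 727 on replicates 1 to 5. Its Cntrl intensity was 3119, 4188, 1924, 1991 and 2454. Cntrl was thus the brighter column on every array, although empty spots were also brighter there. After loess the log2 ratio was −0.27, −0.88, −0.05, −0.56 and −0.63, so replicate 3 was close to 0 and replicate 2 lowest. The mean was −0.48 ± 0.32 (SD, n = 5 arrays), with a 95% interval from −0.79 to −0.17 and an adjusted p of 0.157 in limma over 568 miRNAs (unadjusted p = 0.00997, rank 36).

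The ratio of miR-383 differed between the rows of its spots. Its 6 spots stood in row 1, at the edge of the array, and in row 65, with 3 spots in each. The 3 spots of row 65 averaged −0.55 over the arrays and those of row 1 −0.40. The row 65 value was the lower on 5 of 5 arrays, by 0.16 ± 0.10 on average. On replicate 3 the rows differed in sign, at 0.09 in row 1 and −0.19 in row 65. The rows of miR-488 (10 and 74) differed more on single arrays but in no constant direction, with 0.40 against 0.05 on replicate 4 and 0.11 against −0.06 on replicate 3, and by −0.06 ± 0.20 on average. For the other 7 miRNAs the difference between rows was at most 0.13 on any array. The part of the row in the miR-383 ratio was not tested.

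MiR-488, whose host gene Astn1 serves neuron migration along glia, was 1.25-fold higher in Test after loess. Its Test intensity was 257, 387, 143, 117 and 106 on replicates 1 to 5, against mismatch limits of 167, 209, 107, 89.6 and 77.8. Its Cntrl intensity was 444, 513, 464, 416 and 479, against limits of 379, 414, 399, 409 and 464. Cntrl was thus the brighter column on every array, opposite to the ratio after loess, and empty spots were also brighter there. The signal cleared unspecific binding by little, most of all in Cntrl on replicates 4 and 5. The log2 ratio was 0.37, 0.58, 0.02, 0.23 and 0.40, positive as a mean of 6 spots on each array, with replicate 3 near 0 as for miR-383. Its mean was 0.32 ± 0.21 (SD, n = 5), with a 95% interval from 0.12 to 0.52 and an adjusted p of 0.152 in limma (unadjusted p = 0.00914, rank 33). The mean depended on background handling: 0.24 with no background correction, 0.38 with normexp offset 16 and 0.48 with blank subtraction. The 6 spots of this dim probe scattered with a median SD of 0.16, beside an SD of 0.21 between arrays. Each array value is a mean of the 6 spots, which scatters less than single spots.

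MiR-128 and miR-218 had ratios of 1 sign but small size. MiR-218 is abundant in motor neurons, where its loss in mice disturbs neuromuscular function. Its Test intensity was 33164, 38639, 35348, 36217 and 30356, and its Cntrl intensity 37111, 37536, 32387, 33137 and 35646. The columns overlapped, with Test the brighter on replicates 2, 3 and 4. After loess the log2 ratio was −0.13, −0.01, −0.10, −0.06 and −0.09. The mean of −0.08 ± 0.04 (SD, n = 5) had a 95% interval from −0.15 to −0.01 and an adjusted p of 0.222 in limma. The unadjusted p of miR-218 in limma, 0.034, depended on the setting. It was 0.007 with no background correction and 0.236 with blank subtraction. It was 0.144 when only probes above the mismatch controls were fitted, 0.309 when loess used only those, and 0.367 in the submitters' table. The spread between arrays was the smallest of the 9 and lay below the median SD of its own 6 spots (0.08). An array value is a mean of those spots, which scatters less than single spots, so these SDs are not alike in kind.

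MiR-128, which restrains neuronal excitability and whose loss in mouse forebrain neurons causes seizures, had Test intensities of 39106, 44036, 40725, 43796 and 30480. Its Cntrl intensities were 43100, 42488, 36848, 39908 and 42348. The log2 ratio was −0.10, −0.00, −0.11, −0.08 and −0.36, with replicate 5 lower than the other arrays. Its mean was −0.13 ± 0.13 (SD, n = 5), with a 95% interval from −0.27 to 0.01 and an adjusted p of 0.262 in limma. Without replicate 5 the mean was −0.07. MiR-27a and miR-27b, with the shifted seed, had means of −0.00 ± 0.06 and 0.12 ± 0.09.

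MiR-137, which shapes neuronal maturation and dendrites and whose human locus is linked to schizophrenia risk, had no common direction. Its log2 ratio was −0.09, 0.20, −0.00, −0.04 and −0.25 on replicates 1 to 5, so replicates 2 and 5 lay at opposite ends. The mean was −0.04 ± 0.16 (SD, n = 5), with a 95% interval from −0.20 to 0.12 and an adjusted p of 0.771 in limma. It was 0.02 without replicate 5, −0.10 without replicate 2 and −0.02 without replicate 1. Test intensities ran from 17209 to 28674 and Cntrl intensities from 18655 to 24699, and the columns overlapped.

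MiR-138, a dendritic miRNA that limits spine size in rat hippocampal neurons by repressing the depalmitoylating enzyme APT1, had log2 ratios of −0.01, −0.39, −0.43, −0.09 and 0.12. Replicates 2 and 3 lay together well below the others. Its mean was −0.16 ± 0.24 (SD, n = 5), with an adjusted p of 0.373 in limma, and it was 0.01 with the sign of replicate 3 turned. It was −0.10 without replicate 2 and −0.09 without replicate 3. The array also carries miR-138* (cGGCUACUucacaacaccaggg), the opposite arm of the Mir138-1 hairpin (chr9:122682936-122682957, plus strand). Its log2 ratio was 0.18, −0.13, −0.21, 0.23 and 0.66. These values follow the order of the arrays seen for miR-138 except between replicates 1 and 4 but lie higher on 5 of 5 arrays, by 0.31 ± 0.14 on average. An exact two-sided sign-flip permutation test of this difference reached 2 of 32 sign patterns, the least that 5 arrays allow, with p = 0.104 when adjusted over the 5 arm pairs compared.

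The same adjusted p was reached by miR-488 with miR-488* and by miR-218 with miR-218-2*, given below, and not by the remaining arm pairs. MiR-129-5p takes part in the downscaling of synapses in rat hippocampal neurons, and miR-129-3p is the other arm of the Mir129-2 hairpin. The log2 ratio of miR-129-5p was 0.17, −0.11, −0.10, 0.32 and 0.22. That of miR-129-3p was −0.08, −0.15, 0.20, −0.15 and −0.85. The arms thus opposed each other in sign on replicates 1, 3, 4 and 5. Their means were 0.10 ± 0.20 (adjusted p = 0.470 in limma) and −0.21 ± 0.39 (adjusted p = 0.449), and the difference between them, 3p minus 5p, was −0.31 ± 0.51 (exact sign-flip permutation test, p = 0.375 adjusted over the 5 pairs). Replicate 5 carried much of this: Test intensity of miR-129-3p was 3804 there against a Cntrl intensity of 10433, while replicates 1 to 4 had 10485, 10844, 7692 and 6187 in Test and 11381, 11627, 7678 and 7088 in Cntrl. Without replicate 5 the mean of miR-129-3p was −0.05. The mean of miR-129-5p was 0.04 without replicate 4 and 0.15 without replicate 2 or without replicate 3. The 6 spots had an SD of 0.08 on replicate 5, so the low value there was shared by the spots.

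For miR-488 and miR-218 the opposite arms were dim. MiR-488* did not exceed the mismatch limit in either column on any array, with a mean of 0.05 ± 0.03. The difference, miR-488* minus miR-488, was positive on 0 of 5 arrays and averaged −0.27 ± 0.20. Its exact sign-flip permutation test gave p = 0.104 adjusted over the 5 pairs. MiR-218-1* exceeded it on 2 arrays in each column and had a mean of −0.03 ± 0.07. MiR-218-2* exceeded it on 2 arrays in Test and 1 in Cntrl and had a mean of 0.05 ± 0.03. It lay above miR-218 on 5 of 5 arrays, by 0.12 ± 0.07 on average (same test, adjusted p = 0.104). For miR-218-1* the difference from miR-218 was 0.05 ± 0.09 (same test, adjusted p = 0.375). The offset added before log2 draws the ratios of such dim probes towards 0 by construction.

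MiR-153, which represses alpha-synuclein and the amyloid precursor protein in cultured cells, was positive on 4 of 5 arrays. Its log2 ratio was 0.28, 0.12, 0.23, 0.18 and −0.29. Replicate 5 was the only negative value, at a Test intensity of 4871 against 9021 in Cntrl, while replicates 1 to 4 had 11042, 11021, 6315 and 5304 in Test against 9363, 9823, 6414 and 4992 in Cntrl. The mean was 0.10 ± 0.23 (SD, n = 5), with a 95% interval from −0.12 to 0.33 and an adjusted p of 0.508 in limma. Without replicate 5 it was 0.20 (adjusted p = 0.108), without replicate 1 it was 0.06, and with the sign of replicate 3 turned it was 0.01.

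The spread between arrays was larger than that between spots for 8 of the 9. The SD between arrays over the median SD of the 6 spots was 5.01 for miR-129-3p, 3.02 for miR-383, 2.77 for miR-138, 2.72 for miR-129-5p and 2.31 for miR-153. It was 1.79 for miR-128, 1.69 for miR-137, 1.27 for miR-488 and 0.557 for miR-218. An array value is a mean of 6 spots, which scatters less than single spots. These quotients therefore do not say how much of the spread comes from the spots. Differences between mice and between arrays cannot be told apart in this spread.

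The 9 did not move as a block across arrays. The closest pair was miR-128 and miR-137, with a root mean square difference of 0.11 between their 5 ratios, followed by miR-128 and miR-218 (0.12). The farthest was miR-383 and miR-488 (0.92). The non-member nearest to each was sought among 309 miRNAs above the mismatch controls, by the same measure over 5 arrays. It was miR-29c for miR-129-3p (0.14), with −0.98 on replicate 5 and 0.36 on replicate 3. It was miR-99a for miR-153 (0.08), also negative on replicate 5 only (−0.34). It was miR-346 for miR-138 (0.09), miR-139-5p for miR-129-5p (0.07), miR-221 for miR-137 (0.10) and miR-340-3p for miR-488 (0.13). MiR-127* was nearest to both miR-218 (0.05) and miR-128 (0.11). MiR-383 had no close match, the nearest being miR-700 at 0.29.

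The ratios of most members depended on how the arrays were normalized. Test over Cntrl rose with intensity on all 5 arrays when each array was only centred on its median, with correlations between ratio and mean log2 intensity from 0.51 to 0.90 over all miRNA probes. In that setting miR-218 stood at 0.71 (limma adjusted p = 0.016), miR-137 at 0.69 (0.014), miR-153 at 0.68 (0.016), miR-128 at 0.67 (0.017), miR-138 at 0.41 (0.016) and miR-129-5p at 0.32 (0.020). These 6 then passed the threshold, as did 248 of 568 miRNAs (43.7%). The 68 perfect-match control spots, which do not report on mouse miRNAs, were read in the same settings. Both settings shift a spot by its array or intensity alone, so a shift shared with miRNAs is built in. These spots had mean ratios of 0.39, 0.50, 1.63, 0.97 and 0.93 on replicates 1 to 5 with median centring. With loess they had −0.03, 0.04, 0.35, 0.10 and 0.10. With neither background correction nor normalization the same spots averaged −0.06, 0.10, 0.53, 0.27 and −0.08, so they were also nearer 0 there than with median centring. How much of each control was added to the samples is not given in the sources used here, and the part of the trend in the 6 ratios was not tested beyond these values.

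**Figure D3:**
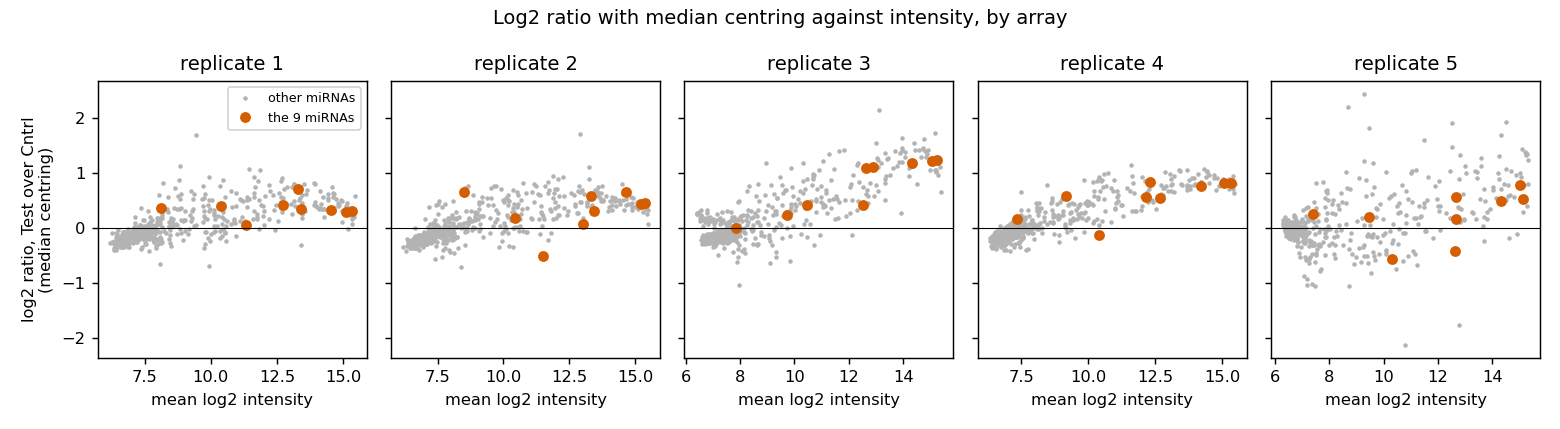
Log2 ratio of Test over Cntrl with median centring against mean log2 intensity, 1 panel per array, for 569 miRNAs with the 9 marked. Ratios rise with intensity on each array, and the 9 lie mostly within the cloud of other miRNAs of similar intensity.

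MiR-383 and miR-488 kept opposite signs in most settings. MiR-383 stayed negative in all settings tried: −0.49 when loess used only probes above the mismatch controls, −0.52 in the submitters' table (limma adjusted p = 0.292), −0.14 with median centring and −0.86 with no normalization. With median centring its array values were 0.06, −0.50, 0.42, −0.12 and −0.55, so they were not of 1 sign there. MiR-488 was at 0.32, 0.49 (adjusted p = 0.292), 0.29 and −0.44 in the same settings. With no normalization its sign turned and it passed the threshold in the direction opposite to its main value (adjusted p = 0.018 in limma), as did miR-129-5p (−0.40, adjusted p = 0.030). In that setting, which kept the normexp background correction, 442 of 568 miRNAs (77.8%) passed. Before that correction, empty spots had medians of 31.4 to 45.7 in Test and 208 to 361 in Cntrl. With array weights both came near the threshold, at −0.52 and 0.34, each with an adjusted p of 0.052 in limma.

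**Figure D4:**
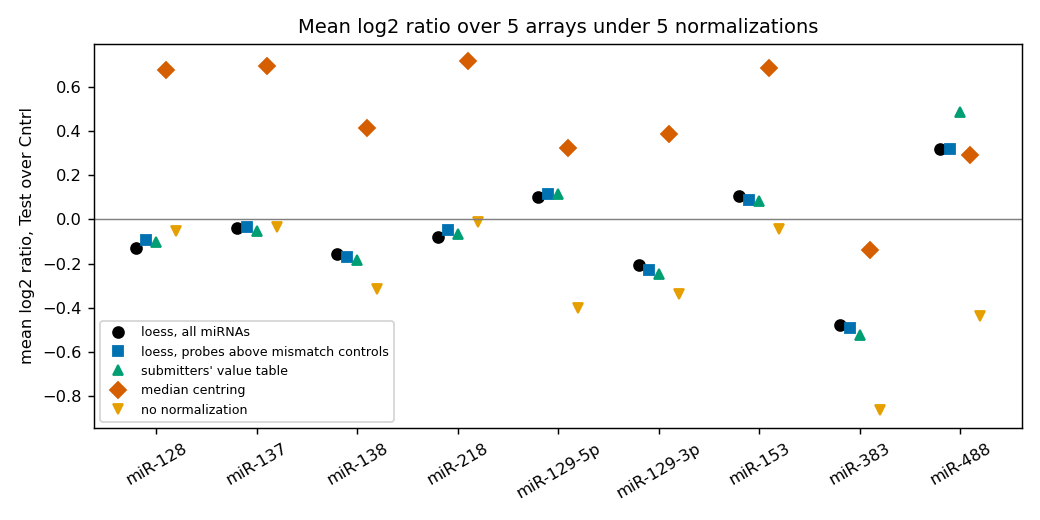
Mean log2 ratio of Test over Cntrl over 5 arrays (vertical axis) for the 9 miRNAs under 5 normalizations, 1 symbol each. The loess settings and the submitters' table lie close together except for miR-488 (0.49 in the table), while with median centring 8 of the 9 lie above 0 and miR-383 lies at −0.14.

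Other neuron-enriched miRNAs did not pass the correction either. Of 38 further miRNAs listed as neuron-enriched, all on the array, 18 had positive and 20 negative means, with a median of −0.03, and 35 lay above the mismatch controls. An unadjusted p below 0.05 was reached by 3 higher and 3 lower in Test, 6 of 38 in all, beside 19.4% over all miRNAs. The 4 with the largest moderated statistic were miR-9, a regulator of neural progenitors, at −0.17 ± 0.07 (limma adjusted p = 0.135), miR-330 at 0.16 ± 0.09 (0.152), miR-125b-5p at −0.24 ± 0.22 (0.222) and the activity-induced miR-132 at 0.16 ± 0.14 (0.234).

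Markers of other cells that a dissected hippocampus can hold were also read, where above the mismatch controls means in either column on 3 or more arrays. Of 3 oligodendrocyte miRNAs 2 lay above the mismatch controls (miR-219 did not), with summed intensities of 3298 to 8657 in Test and 3790 to 9641 in Cntrl. Of 5 microglia and leukocyte miRNAs 2 did (miR-223 and both arms of miR-142 did not), with sums of 12073 to 19239 and 11955 to 17260, and all 5 had positive means with a median of 0.14, beside 51.6% positive over all miRNAs. The 4 endothelial and mural miRNAs all did (24388 to 36591 and 26058 to 35496), as did 2 of 3 red blood cell miRNAs, without miR-144 (3198 to 14170 and 4491 to 9840). Of 5 choroid plexus miRNAs 2 did, without miR-211, miR-34b-5p and miR-449a (25402 to 33640 and 18772 to 31406), and all 3 striated muscle miRNAs did (340 to 1416 and 1270 to 2099). None of these 23 passed the correction in limma, and 3 had an unadjusted p below 0.05 (miR-150, miR-126-5p and miR-211), each with a positive mean, beside 19.4% of all miRNAs. The sums hold intensity before background correction. Between arrays the median log2 ratio of a list ranged from −0.36 to 0.56 for striated muscle and from −0.16 to 0.31 for oligodendrocytes. For microglia and leukocytes it ranged from −0.06 to 0.31, and for endothelial and mural cells from −0.03 to 0.30. For red blood cells it ranged from −0.14 to 0.30, and for choroid plexus from −0.04 to 0.09. The part of tissue composition in the ratios of the 9 was not tested.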

How the data were processed

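Small RNA from hippocampi was measured on 5 two-colour arrays, each with 1 Met/Met and 1 Val/Val mouse. Per the labels, RNA was extracted with the mirVana kit and labelled with Cy5 (Val/Val) or Cy3 (Met/Met). The deposited scanner tables hold linear spot intensity that is not background-corrected or normalized, per the file headers, in 3968 spots an array; their background columns are 0. The deposited value table holds 1 log2 ratio per probe and array, while how its background and normalization were handled is not given in the sources used here. Its column medians ranged from −0.05 to −0.02, and whether it was centred is unknown.

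Intensities were corrected with normexp (offset 50) on all spots and normalized within arrays by loess with control spots at weight 0, and the 6 spots of a probe were averaged on the log2 scale. A probe was tested if, on 3 or more arrays, either column exceeded the 95th percentile of that column's 266 empty spots. Ratios were fitted with an intercept in limma 3.58.1 (R 4.3.3), two-sided, with Benjamini-Hochberg adjustment over 568 miRNAs at a threshold of 0.05. Mismatch controls were 136 spots. The array pairs the mice, so each ratio already carries the replicate as a block, and p-values cover the spread between 5 pairs. An exact sign-flip permutation test over 5 arrays has 32 sign patterns and cannot reach the threshold. The script was tested on simulated data. Every member of the rule is named, with the opposite arms of its hairpin, its nearest non-member and 4 of the neuron-enriched list; members, lists and tests were chosen with earlier results of these data known, and miR-27a, miR-27b, the marker miRNAs singled out, the rows of spots and the control spots were looked at after values were seen. Alternatives covered background, normalization, filter, spot summary, variance model, array weights, pairing, each array and the value table; turning replicate 3 was chosen after seeing the data. Sequences and gene spans are from RefSeq (GRCm38.p6). Figures used matplotlib 3.10.9.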

Additional observations from a re-analysis of the deposited data

Results flagged for a closer look

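The log2 ratio of miR-153 on replicate 5 was −0.29, set apart from the other 4 arrays at 0.12 to 0.28 by more than Dixon's critical value of 0.710 allows for a group of 5. This was 1 of 13 miRNAs examined in this way (the 9 and 4 opposite arms), and chance flags about 1 in 20.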

How the results depend on the processing

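The number of miRNAs past the threshold, 0 of 568 in limma (110 at an unadjusted p below 0.05), was 248 with median centring, 442 with no normalization, 21 with array weights, 9 at an adjusted p of 0.10, and 2 each with normexp offset 16, blank subtraction and the submitters' value table. It ranged from 0 to 5 when 1 array was left out, with 5 without replicate 3. None of these included 1 of the 9 except with median centring (6) and no normalization (3). The count of the 9 with an unadjusted p below 0.05 in limma was 3 (19.4% over all miRNAs). It was 7 with median centring (51.9% of all miRNAs) and 0 with no replicate block, where 0.352% of all miRNAs reached it. With 1 array left out it was 2 to 4, where 10.2% to 24.6% of all miRNAs reached it. The count with 1 sign on all arrays was 4 (19.7% over all miRNAs). It was 7 with median centring (47.0%), 2 with loess restricted to probes above mismatch controls (10.6%) and 2 with the median of spots (18.8%). In the submitters' table it was 1 (17.1%). With replicate 3 turned it was also 1 (19.5%), where the loss of the first 4 is fixed by the turning itself. Each percentage is the share over all miRNAs in that setting. The median of the 9 was −0.08, and it was 0.41 with median centring and −0.31 with no normalization. Signs turned with median centring for miR-128 (0.67), miR-129-3p (0.39), miR-137 (0.69), miR-138 (0.41) and miR-218 (0.71), and with no normalization for miR-129-5p (−0.40), miR-153 (−0.043) and miR-488 (−0.44). They also turned for miR-137 without replicate 5 (0.015; lowest −0.096 without replicate 2) and for miR-138 with replicate 3 turned (0.013). Otherwise the 9 kept their sign in each setting. Past the threshold were miR-128, miR-137, miR-138, miR-218 (these 4 with the sign turned), miR-129-5p and miR-153 with median centring, and miR-383, miR-129-5p and miR-488 (the last 2 with the sign turned) with no normalization. The cause was not tested. The number of arrays and, for miR-488, a signal near the mismatch controls limit what can be seen.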
